A study of Mus musculus with 5 samples.

Results

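The replication-dependent histone genes were taken as every protein-coding gene of the GENCODE vM1 annotation of the mm9 mouse genome whose symbol begins with Hist1h, Hist2h, Hist3h or Hist4h. There were 67 such genes among 22380. Their H3K9ac peaks were those centred within 10 kb of any of their annotated transcript starts, each peak counted once, which gave 155 of 34286 peaks for DOP-treated cells and 138 of 33355 in the list of untreated cells. The genes were chosen by name and their peaks by distance, so no peak score entered the choice.

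The cells were STHdh Q111 cells, a conditionally immortalised line of mouse striatal progenitors of the strain C57BL/6 in which both huntingtin genes carry the mutant allele Q111 with an expanded CAG repeat (Q111/Q111). All groups were starved of serum for 24 h. The DOP group (2 samples) received 4 mM DOP, the inhibitor 4-deoxypyridoxine of the sphingosine-1-phosphate lyase SPL, over these 24 h, and the untreated group (2 samples) received no DOP. Chromatin with H3K9ac, the acetylated form of lysine 9 in histone H3, was precipitated from these 4 samples, and 1 IgG sample of untreated cells was the negative control. All samples came from 1 line, and cells with normal huntingtin were not analysed here.

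Each condition had 1 peak list, so a difference below is a difference between 2 lists, with no replicate error and no test, and intervals cover counting error only. Each peak but 1 is an interval of 200 bp with a score. What the score counts and the depth behind it are not given in the sources used here. A score is therefore also given as a percentile, the rank of the peak among all peaks of its own list, from 0 for the lowest to 100 for the highest. Among all protein-coding genes, 51.4% had a DOP-treated and 50.8% an untreated peak within 1 kb of a start. As a check of the labelled cell type, 3 of 9 neural progenitor markers had a peak within 1 kb in both lists (Vim, Dlx1 and Msi1), and none stood at Nes or Sox2. Of 4 fibroblast markers, 3 had such a peak (Col1a1, Col1a2 and Pdgfrb), as did 1 of 4 astrocyte markers (Slc1a2). Of 6 striatal neuron and 5 oligodendrocyte markers, 1 each had a peak with DOP and none without it, and none of 4 microglial and none of 3 endothelial markers had one.

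Replication-dependent histone genes supply the core histones H2A, H2B, H3 and H4 and the linker histone H1 that package newly made DNA in S phase. They are short, mostly without introns, and lie in clusters that are transcribed in a nuclear compartment, the histone locus body. Their mRNAs end in a stem-loop that binds the protein SLBP and not in a poly(A) tail. H2A and H2B genes often stand head to head and share the DNA between their starts. H3K9ac is a mark of active promoters, usually strongest on the nucleosomes beside a start.

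The sequences below show the DNA that peaks flanked but did not cover. They are the mm9 sequences between the starts of 4 head-to-head H2A and H2B pairs, on the plus strand and 5′ to 3′, with the gene transcribed leftwards named first. Capitals mark 3 promoter motifs on either strand, the TATA box (TATAAA), the octamer bound by the POU factor OCT1 (ATTTGCAT) and the CCAAT box (CCAAT). All 4 printed pairs hold the octamer letters, which other pairs lack, as between Hist1h2ag and Hist1h2bj.
Hist1h2ac and Hist1h2bc (chr13:23775818-23776067): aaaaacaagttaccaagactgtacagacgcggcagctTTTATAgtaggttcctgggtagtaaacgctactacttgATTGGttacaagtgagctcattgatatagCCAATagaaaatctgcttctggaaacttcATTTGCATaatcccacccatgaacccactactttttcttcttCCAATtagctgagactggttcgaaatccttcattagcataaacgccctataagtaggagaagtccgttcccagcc
Hist1h2ae and Hist1h2bg (chr13:23663090-23663264): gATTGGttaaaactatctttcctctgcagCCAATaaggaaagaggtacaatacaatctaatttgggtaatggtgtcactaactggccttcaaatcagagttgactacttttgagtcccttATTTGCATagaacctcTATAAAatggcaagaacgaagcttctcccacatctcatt
Hist1h2ah and Hist1h2bk (chr13:22127513-22127689): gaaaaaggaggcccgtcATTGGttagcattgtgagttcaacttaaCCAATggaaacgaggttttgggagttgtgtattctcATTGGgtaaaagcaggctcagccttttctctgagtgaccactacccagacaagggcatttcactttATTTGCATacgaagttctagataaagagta
Hist2h2ac and Hist2h2be (chr3:96024804-96025043): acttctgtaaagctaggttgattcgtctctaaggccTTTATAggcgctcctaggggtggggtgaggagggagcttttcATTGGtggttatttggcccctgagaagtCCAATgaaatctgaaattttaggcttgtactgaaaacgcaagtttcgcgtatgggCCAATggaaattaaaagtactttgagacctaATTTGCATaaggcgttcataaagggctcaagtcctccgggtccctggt
The 200 bases upstream of 2 H1 genes, with the same capitals and each read in the direction of its gene, show Hist1h1d, which had peaks, and Hist1h1t, the testis H1 gene, which had none within 1 kb. These 2 genes were chosen after their values were seen. Hist1h1c, the H1 gene with the highest DOP-treated score, has no TATAAA in its 200 bases either.
Hist1h1d (chr13:23646701-23646900, plus strand): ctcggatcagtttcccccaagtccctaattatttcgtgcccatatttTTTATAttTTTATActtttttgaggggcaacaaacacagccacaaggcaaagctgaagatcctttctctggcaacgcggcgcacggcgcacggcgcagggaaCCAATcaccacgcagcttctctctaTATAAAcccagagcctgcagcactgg
Hist1h1t (chr13:23787480-23787679, plus strand): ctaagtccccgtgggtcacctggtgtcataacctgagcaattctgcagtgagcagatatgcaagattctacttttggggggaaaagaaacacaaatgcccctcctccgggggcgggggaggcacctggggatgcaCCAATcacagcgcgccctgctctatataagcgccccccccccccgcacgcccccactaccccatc
The sites at the 3′ end, one for each class, carry the histone stem-loop in capitals.
Hist1h1c (chr13:23831376-23831401, plus strand): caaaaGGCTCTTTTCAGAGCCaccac
Hist1h2ac (chr13:23775341-23775366, minus strand): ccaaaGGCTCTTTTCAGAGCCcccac
Hist1h2bc (chr13:23776511-23776536, plus strand): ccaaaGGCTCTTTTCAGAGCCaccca
Hist1h3d (chr13:23668108-23668133, plus strand): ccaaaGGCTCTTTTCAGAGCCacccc
Hist1h4i (chr13:22132830-22132855, minus strand): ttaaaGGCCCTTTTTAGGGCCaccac

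A stem-loop site was found within 150 bases after the stop codon of 60 of 67 histone genes, or 89.6%, against 63 of all 22380 genes, or 0.282%. The other 3 genes with one were H2afx, which encodes H2A.X, Btbd10 and 1700014N06Rik. The 7 histone genes without a match were Hist1h2an, Hist1h2al, Hist1h2bp, Hist1h2bq, Hist1h2br, Hist2h2be and Hist2h2bb, and all 7 encode H2A or H2B. The search began at the outermost annotated coding end of a gene. Hist1h2bp, Hist1h2bq, Hist1h2br and Hist2h2bb have models of 2 or 3 exons, so a site after an earlier stop would be missed. No match there does not show that the gene lacks the stem-loop. The class showed in the letters of the site. The form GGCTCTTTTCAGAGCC stood at 5 of 6 H1, 15 of 17 H2A, 9 of 13 H2B and 7 of 11 H3 sites, whereas 8 of 13 H4 sites read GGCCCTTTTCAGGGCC and none of the 13 had the other form. In the 250 bases before the start, TATAAA was found in 33 of 67 genes (49.3%, against 12.3% of all genes), CCAAT in 57 (85.1% against 35.0%) and ATTTGCAT in 15 (22.4% against 1.62%), on either strand, and the shared DNA of a pair counted for both of its genes. All 15 genes with the octamer letters encode H2A (7) or H2B (8). CCAAT stood before 19 of 19 H2A, 18 of 18 H2B, 6 of 6 H1 and 10 of 11 H3 genes, but before 4 of 13 H4 genes. These matches describe the letters in the window and do not say that a factor was bound.

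The 67 genes comprised 6 for H1, 19 for H2A, 18 for H2B, 11 for H3 and 13 for H4. Translated from the longest annotated coding model of each gene, they gave 32 different proteins. Models of unusual length count as proteins of their own here, as at Hist1h2bp (138 residues) and Hist2h2bb (120 residues). All 13 H4 genes gave 1 protein, whereas each H1 gene gave a protein of its own. The 11 H3 genes gave 3, of which 1 was the 181-residue model of Hist2h3c1 alone. On chromosome 13 lay 55 genes (Hist1), on chromosome 3 lay 9 (Hist2), on chromosome 11 lay 2 (Hist3) and on chromosome 6 lay 1 (Hist4h4). Where starts more than 100 kb apart were split, they fell into 8 groups. The 2 largest, both on chromosome 13, held 29 genes over 232.6 kb (Hist1h4h to Hist1h1a) and 18 genes over 117.6 kb (Hist1h2bl to Hist1h2br).

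Every one of the 67 genes had a peak within 10 kb in both lists, where the list of DOP-treated cells had one for 57.7% of all genes and that of untreated cells for 56.9%. Because the genes stand close together, a peak of 1 gene often lay within 10 kb of several, and the count within 1 kb is closer to the single gene. Within 1 kb, 66 genes had a DOP-treated peak and 65 an untreated peak. Of the DOP-treated peaks within 1 kb, 66 of 124 were centred in a coding exon and 42 outside protein-coding genes, and of the untreated ones 63 of 112 and 30.

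Along the clusters the peaks stood in tight bursts at the genes. Between the first and last start of the 29-gene group, with 1 kb on either side, the lists held 68 peaks with DOP and 57 without it, and 55 and 49 of them lay within 1 kb of a histone start. That is 2.90 and 2.43 peaks per 10 kb, against 0.129 and 0.126 over the whole genome. In the 18-gene group there were 39 and 33 peaks (3.26 and 2.76 per 10 kb). The Hist2 group, 9 genes over 49.8 kb, held 22 and 21 peaks (4.25 and 4.05 per 10 kb). The 5 genes from Hist1h2ah to Hist1h2bj, over 7.57 kb, held 8 peaks in each list. Between the groups the peaks were sparser. The 201.9 kb between the 18-gene and the 5-gene group hold 3 other genes and had 15 and 12 peaks, 0.750 and 0.600 per 10 kb, which is above the genome's density. The 1488 kb between this 5-gene group and the 29-gene group hold 38 other genes and had 26 and 23 peaks, 0.175 and 0.155 per 10 kb. The 170 kb between the 29-gene group and the Hist1h2ba and Hist1h2aa pair hold 5 other genes and had none in either list. The other genes that begin inside a group, Gm17658, the iron regulator Hfe and Trim17, all had peaks within 1 kb in both lists, but the highest of these at Gm17658 (484.8 and 356.8) was also that of Hist1h4d, and the peak at Trim17 (854 and 687) was also that of Hist3h2a.

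**Figure D1:**
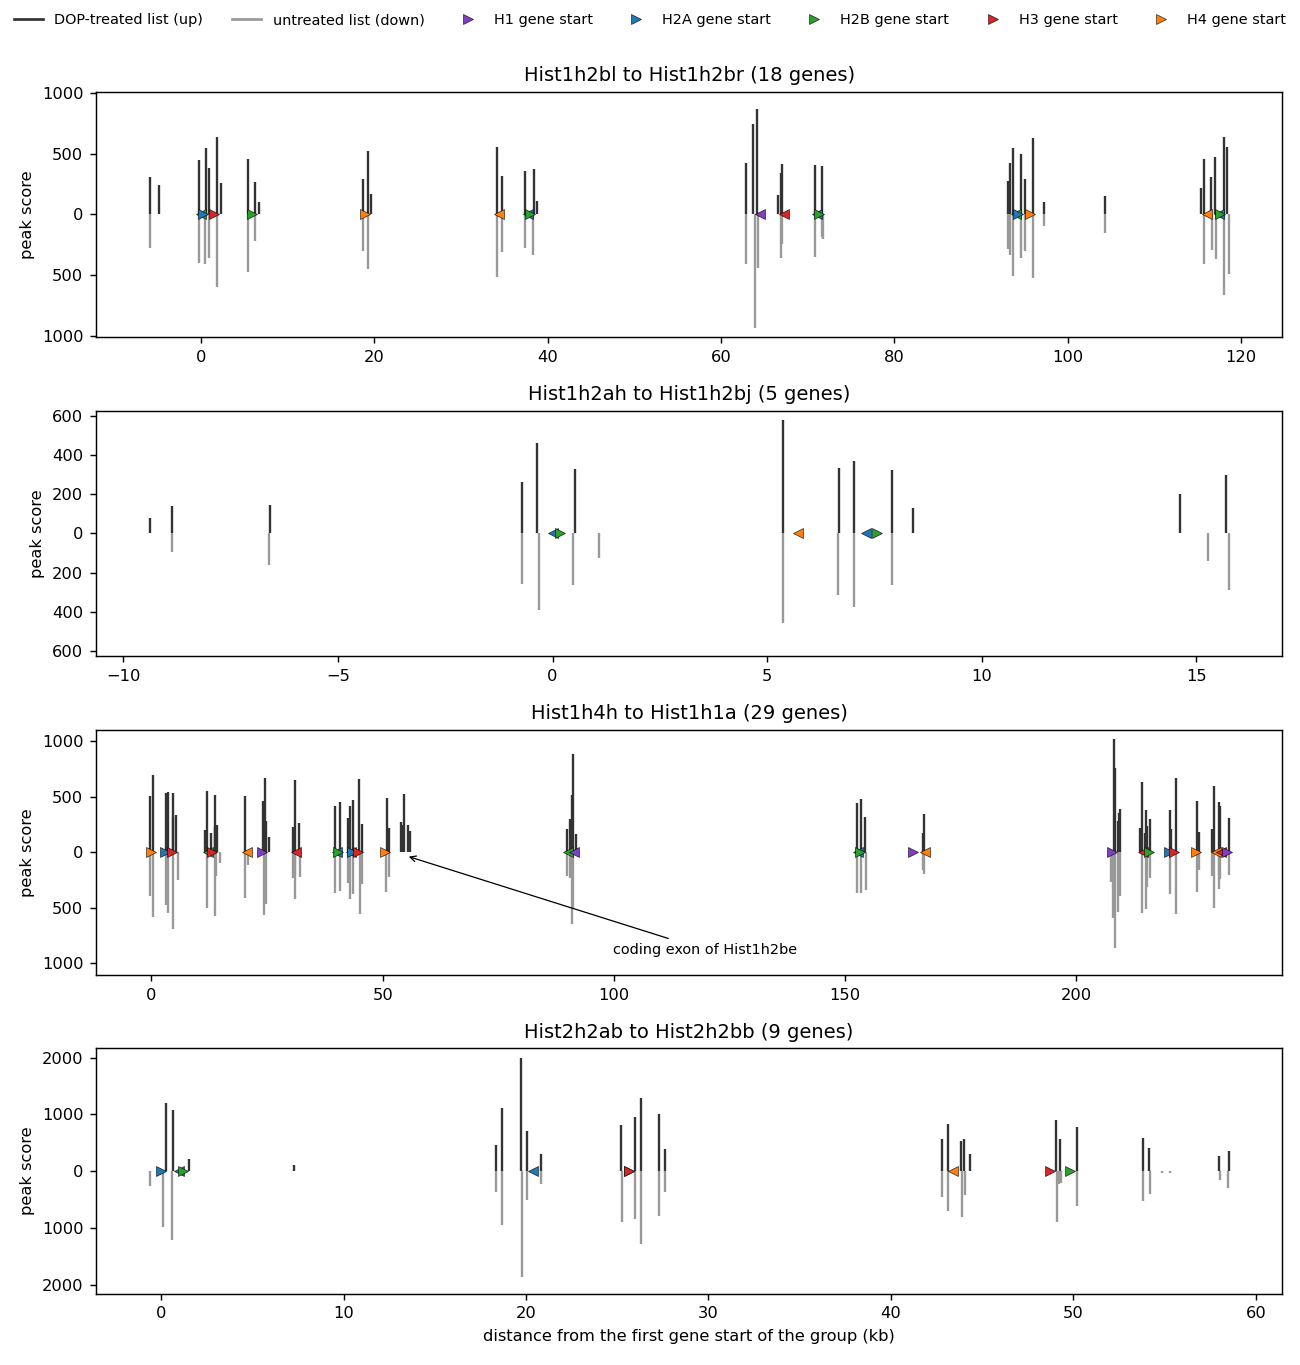
H3K9ac peak scores along the 4 largest groups of histone genes. The horizontal axis is the distance from the first gene start of the group in kb, DOP-treated scores point up and untreated scores point down, and triangles mark gene starts by class and direction. In the 29-gene group the 5 DOP-treated peaks at and beside the coding exon of Hist1h2be have no untreated peak under them.

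The peaks avoided the start itself, and most genes had a peak downstream of it. The nearest peak downstream of a start had a median offset of 328 bp in both lists, among the 65 and 63 genes with a peak from 0 to 1 kb downstream, against 199 and 197 bp for all genes with such a peak. It lay 200 to 400 bp downstream in 57 of 65 genes (87.7%) with DOP and in 56 of 63 (88.9%) without it, where all genes gave 45.7% and 45.1%. From 200 bp upstream to 100 bp downstream of a start, 1 of 66 genes had a DOP-treated peak and 0 of 65 an untreated one, whereas 32.9% of all genes with a peak within 1 kb did in each list. The exception was the H3 gene Hist1h3f, with a DOP-treated peak of score 173 at 63 bp upstream. Its annotated start lies 433 bases before the coding sequence, against 4 to 113 bases in the other Hist1 H3 genes. Neighbouring starts are close and a peak can count for more than 1 gene, so the 67 genes are not independent of each other. Each peak was measured from the nearest annotated start of its gene. Most histone genes have a single annotated start, whereas a gene with several starts has more places from which a peak is near. How much this adds to the difference from all genes was not tested. The annotated models of 9 genes begin at the first coding base, so their offsets were measured from that base.

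**Figure D2:**
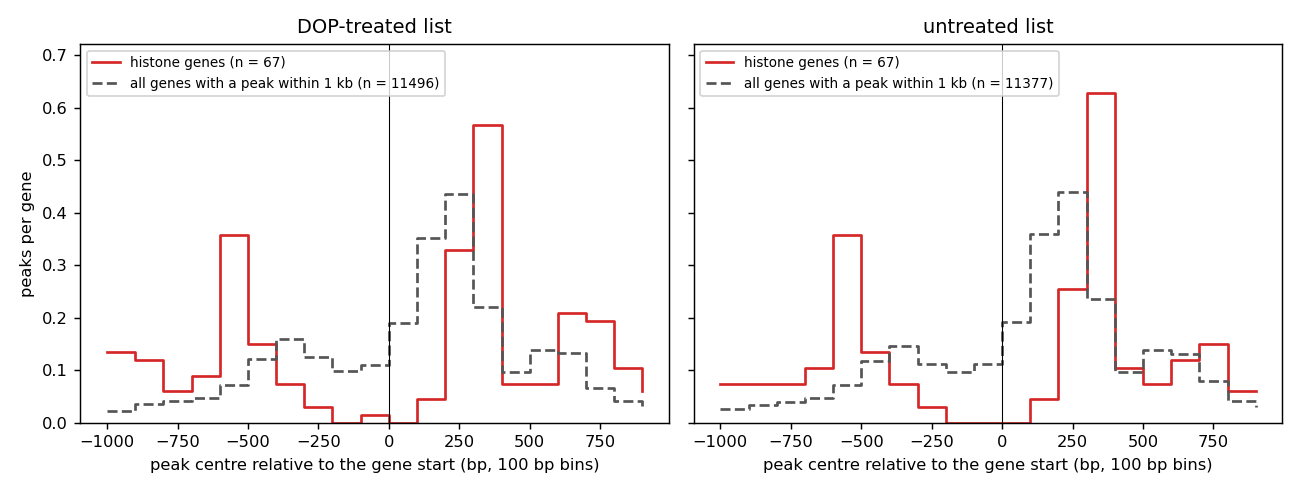
Peaks per gene in bins of 100 bp around the start, in the DOP-treated list (left) and the untreated list (right). The solid line divides by all 67 histone genes and the dashed line by all genes with a peak within 1 kb, and the histone genes have their highest bin at 300 to 400 bp and almost no peak around the start, where all genes have many.

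The 12 head-to-head pairs of an H2A and an H2B gene with starts within 500 bp of each other took in 24 of the 37 H2A and H2B genes. Their starts were 168 to 306 bp apart, with a median of 228.5 bp. The annotated models of Hist1h2bl, Hist1h2bn, Hist1h2an, Hist1h2ba and Hist1h2aa begin at the first coding base. The distances of their pairs, among them the 306 bp of Hist1h2ba and Hist1h2aa, may therefore include untranslated sequence. None of the 12 pairs had a peak between the starts in either list. Of all 1064 head-to-head pairs of protein-coding genes, 4.42% and 3.29% had one, and their starts were a median of 108 bp apart. Where a gene has several starts, the closest starts of the pair were used. Both sides were flanked by a peak within 1 kb in 11 pairs with DOP (91.7%) and 10 without it (83.3%), against 71.4% and 70.7% of all pairs. The flanking peaks were a median of 889 and 878.5 bp apart, against 675.5 and 666 bp over all pairs.

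At Hist1h2ac and Hist1h2bc, whose shared DNA is printed above, the peaks lay 303 and 329 bp into the genes with scores of 442 and 477 in the DOP-treated list, and 343 and 276 bp into them with scores of 371 and 368 in the untreated list. At Hist1h2ae and Hist1h2bg the scores were 418 and 455 with DOP and 365 and 354 without it. At Hist1h2ah and Hist1h2bk they were 460.6 and 330 against 393.2 and 264. These 3 pairs, chosen after their values were seen, had a peak in both genes in both lists with higher DOP-treated scores. In other pairs with both sides occupied, single genes had the higher untreated score, as at Hist1h2ag (368.4 and 377.1), Hist1h2bf (417 and 424.9) and Hist1h2br (639 and 658). A side was empty in at least 1 list at the pairs Hist1h2ba and Hist1h2aa, and Hist2h2ac and Hist2h2be. Hist1h2ba, known as the testis form of H2B, had a peak of score 145 (DOP-treated) and 115 (untreated), and no peak stood on the side of Hist1h2aa, the testis form of H2A. At Hist2h2ac and Hist2h2be the H2A side had scores of 1070.7 and 1206.9, and the H2B side had 1 peak of score 209 with DOP and none without it.

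**Figure D3:**
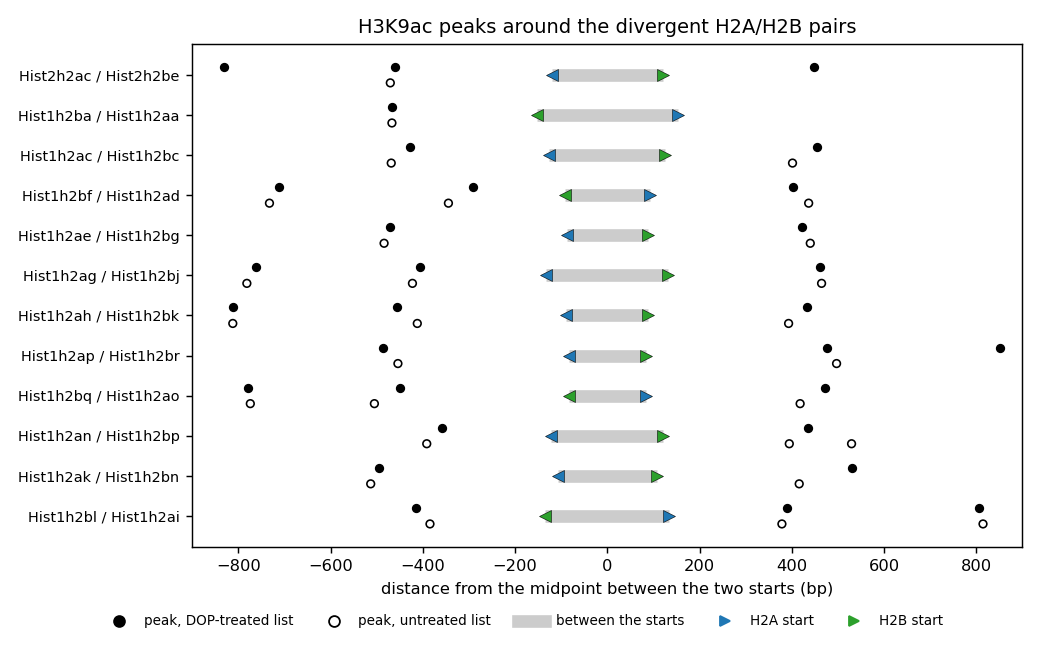
Peak centres around the 12 head-to-head H2A and H2B pairs, as the distance in bp from the midpoint between the starts. Filled circles are DOP-treated and open circles untreated peaks, the grey bar is the DNA between the starts, triangles mark the starts and their direction, and no circle falls on a grey bar.

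The height of the peaks differed between the classes. The highest peak from 0 to 1 kb downstream of the start had a median percentile of 59.5 over 65 histone genes with DOP and 52.6 over 63 without it, below the 74.8 and 73.4 of all genes with such a peak. The H1 genes stood highest, with medians of 82.1 and 71.9 over 5 genes. H3 genes followed with 69.3 and 65.4 over 11 genes, H4 genes with 63.1 and 56.3 over 13, H2A genes with 56.7 and 48.4 over 18, and H2B genes lowest with 46.5 over 18 and 43.6 over 16. The order of the 5 classes was the same in both lists, but the ranges overlapped (H1 from 37.6 to 87.9 and H2B from 7.65 to 77.3 in the DOP-treated list).

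Among the linker histone genes, Hist1h1c had the highest DOP-treated score, 1025 against 862 in the untreated list. Hist1h1b had the highest untreated score, 933.6, against 866.6 with DOP. Hist1h1e scored 884.7 and 651.1, Hist1h1d 670.5 and 570.2, and Hist1h1a 310 and 208. These are the highest peaks of each list, and at Hist1h1b, Hist1h1c and Hist1h1e they were not the same peak. At Hist1h1e the untreated peak nearest to that of 884.7 scored 511.9, and the DOP-treated peak nearest to that of 651.1 scored 520.5. Paired in this way, DOP-treated first, the peaks at Hist1h1c scored 1025 and 590, and 758 and 862. Those at Hist1h1b scored 866.6 and 442.4, and 740.4 and 933.6. Hist1h1t had no peak within 1 kb in either list. Its nearest peaks were 2030 bp downstream (score 177.5, DOP-treated) and 2159 bp downstream (score 156.3, untreated), beside the start of the H4 gene Hist1h4c.

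Among the H2A genes, Hist2h2aa2 had the highest score of all 67 genes, 2002.5 with DOP (percentile 99.0) and 1864.3 without it (98.5). In both lists this peak was centred just past the 3′ end of the gene, in sequence that was 79.3% repeated. The peaks in the coding exon of Hist2h2aa2 scored 698.5 (percentile 73.3) and 516.7 (61.7). Hist1h2al, alone on chromosome 13, had 1271 and 1050, and Hist3h2a had 854 and 687. The highest peak within 1 kb of an H2B start was upstream of Hist2h2be in both lists, but not the same peak. With DOP it was 1203.3 in Hist2h2ab, and without it 1206.9 in Hist2h2ac, where the overlapping DOP-treated peak scored 1070.7. Counted downstream alone, Hist2h2bb was highest in the DOP-treated list with 771, against 613 untreated, and Hist1h2br in the untreated list with 658, against 639 with DOP. Hist3h2ba had a single DOP-treated peak of score 82 (percentile 7.65) at 205 bp downstream and no untreated peak within 1 kb.

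Among the H3 genes, the highest peak within 1 kb was upstream of Hist2h3c1, on the side of Hist2h2aa1 (1293.8 and 1281.7). In their coding exons, Hist2h3c1 had 1001.3 and 790.4 and Hist2h3b 909.2 and 903.4. Hist2h3c1 has 2 annotated starts, 1 of them beside that of Hist2h2aa1. Its highest untreated peak downstream of a start, 845.3, was therefore one that lay in Hist2h2aa1. In the Hist1 groups, Hist1h3b had 670 and 561, Hist1h3d 656.4 and 561, and Hist1h3g, with the reverse order, 534.5 and 692. At Hist1h3g the DOP-treated list had an overlapping second peak of 313.5, where the untreated list had only the peak of 692. Summed over neighbouring peaks as described below, Hist1h3g had 1185 with DOP and 945 without it. Among the H4 genes, which all encode the same protein, scores ranged from 347.5 to 1181 with DOP and from 200.7 to 1308.8 untreated. Hist4h4 was the highest in both lists, and there the untreated peak scored more. An overlapping second peak at Hist4h4 scored 818 with DOP and 227.2 without it. Hist2h4 followed with 833.7 and 701.3, and Hist1h4c was the lowest in both. The highest peaks of the 18-gene group were at Hist1h1b, of the 29-gene group at Hist1h1c, and of the 5-gene group at the H4 gene Hist1h4i (580 and 460).

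The Hist2 genes of chromosome 3 had a median percentile of 87.1 over 9 genes and 88.7 over 8, whereas the genes of chromosome 13 had 56.1 and 49.6 over 53 genes each. Of the 63 genes with a downstream peak in both lists, 50 had a higher percentile in the DOP-treated list, against 56.6% of all genes.

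**Figure D4:**
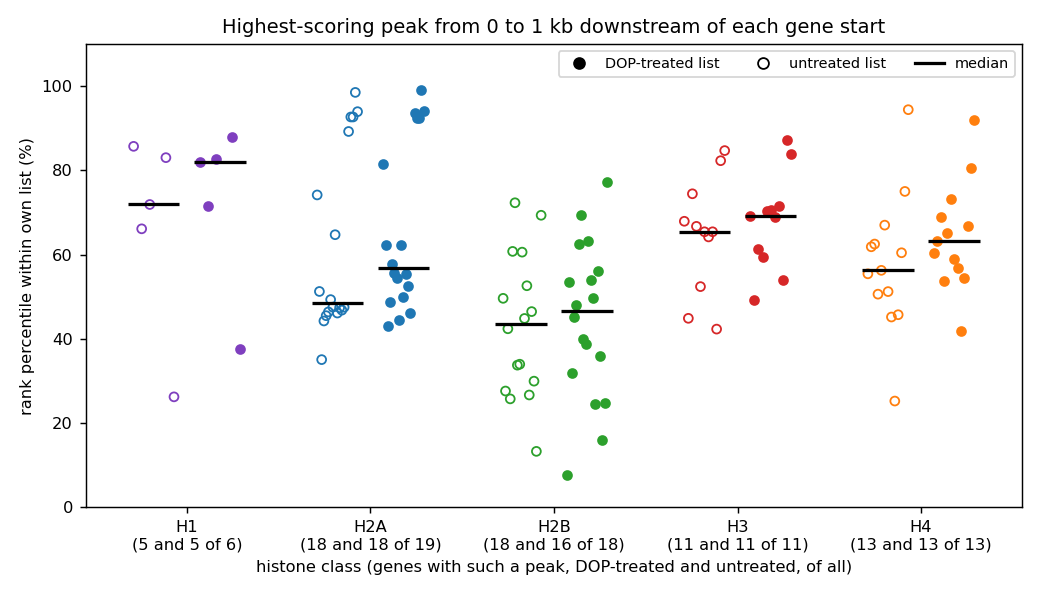
Percentile of the highest-scoring peak from 0 to 1 kb downstream of each gene start, by histone class. Each circle is 1 gene, filled for the DOP-treated and open for the untreated list, the bar is the class median, and H1 genes have the highest and H2B genes the lowest median in both lists.

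Much of the sequence under these peaks is repeated among the histone genes themselves. Words of 32 bases that occur more than once in the genome made up over 50% of 68 of 155 DOP-treated peaks (43.9%) and 66 of 138 untreated peaks (47.8%), against 3.99% and 4.10% of all peaks. Of the repeated words, 79.1% and 81.3% had all of their copies within 5 kb of histone gene starts. The share differed between classes, with a median in the highest DOP-treated peak of 13.6% for H1, 57.4% for H4, 84.0% for H2B and 100% for H2A and H3. How the authors placed reads that fit several sites is not given in the sources used here, so scores of single H2A, H2B, H3 and H4 genes are uncertain, and the part of repeated sequence in the order of the classes was not tested. The DOP-treated peak at Hist3h2ba lay in sequence that was 91.1% repeated.

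Most histone peaks were in both lists. Of the 155 DOP-treated peaks, 27 had no overlapping untreated peak (17.4%, Wilson 95% interval 12.3 to 24.2), against 20.0% of all DOP-treated peaks. Of the 138 untreated peaks, 11 had no overlapping DOP-treated peak (7.97%, 4.51 to 13.7), against 16.7% of all untreated peaks. Within 1 kb of a start these counts were 16 of 124 and 4 of 112. The median percentile of the peaks in 1 list was 23.4 for DOP-treated and 14.7 for untreated peaks, where all histone peaks had 47.7 and 45.9. Peaks in 1 list were low over the whole genome too, with medians of 15.5 and 15.2. Of the 27 DOP-treated peaks, 18 were centred outside protein-coding genes.

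More histone genes had an additional peak in the DOP-treated list than in the untreated list. Within 10 kb, 35 genes had more DOP-treated peaks, 8 had fewer and 24 had equal numbers. Of all genes with a peak within 10 kb in either list, 32.5% had more and 28.5% fewer, and of all genes annotated 19.3% and 16.9%. Within 1 kb, 22 had more and 11 fewer, against 27.9% and 26.4% of genes with a peak there, and 14.7% and 13.9% of all genes. With each peak given to its nearest histone gene alone, 21 had more and 8 fewer. The largest gain within 1 kb was at Hist1h3f, with 4 DOP-treated peaks and 1 untreated peak. Hist1h3c (5 and 3), Hist1h3g (4 and 2), Hist1h4n (4 and 2), Hist1h2bh (3 and 1) and Hist2h2be (3 and 1) each had 2 more. All 11 genes with fewer had 1 peak fewer, among them Hist1h1c (2 and 3), Hist1h4a (4 and 5), Hist1h3e (3 and 4) and Hist2h2bb (3 and 4).

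The annotated start of the H2B gene Hist1h2be does not mark where its protein is encoded. Its gene model runs from a start beside Hist1h1e to a coding exon at chr13:23677448-23677825, 35.2 kb away, so its peaks within 1 kb are those next to Hist1h1e. Within 1 kb of its first coding base stood 5 DOP-treated peaks with scores of 268.9, 247.4, 524.7, 243.2 and 187.8 from left to right. The highest of them overlapped the coding exon, and the others were centred in its untranslated part (268.9 and 247.4) or in the intron (243.2 and 187.8). No untreated peak stood among them, and the nearest untreated centres were 2.74 kb to the left of the leftmost and 34.0 kb to the right of the rightmost of the 5. Repeated words made up 90.5% of the highest of these peaks and 0% of each of the other 4. Their summed score, 1472, stood at percentile 71.3 of all regions of the DOP-treated list. It ranked 7 of 2788 regions that had peaks in the DOP-treated list alone, whose median sum was 88. Among the 2108 regions with untreated peaks alone, 12 had a sum at least as high. Counted from the first coding base, 66 histone genes had a DOP-treated and 64 an untreated peak within 1 kb.

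Scores were also summed over regions, peaks of both lists chained within 1 kb of each other, since peaks that stand close may share 1 signal. Nearly all chains with scores that are not whole numbers summed to a whole number within 0.1 (96.9% of them in the DOP-treated and 97.1% in the untreated list), and so did 33 of 33 and 31 of 32 such chains at histone genes. There were 18457 regions, of which 13561 had peaks in both lists, and 44 had a peak within 1 kb of an annotated histone gene start, 43 of them in both lists. The remaining one was Hist3h2ba, and the region at the coding exon of Hist1h2be lies outside this limit. Of the 43, 42 had a higher sum in the DOP-treated list, or 97.7%, against 69.4% of all regions. The median log2 ratio of the sums, DOP-treated over untreated, was 0.27 at histone genes and 0.12 over all regions, and the total of the DOP-treated list was 1.06 times that of the untreated list. The log2 ratios ran from −0.06 at Hist1h4f (507 and 527) to 0.66 at the region of Hist1h2ab, within 1 kb of the Hist1h3b start (595 and 377). At both extremes 1 list had an additional peak. The overlapping peaks scored 507 and 411 at Hist1h4f, and 383.7 and 377 at Hist1h2ab. The peak in Hist1h3b was a region of its own (670 and 561).

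Single regions show the size of these differences. The sum was 2661 against 2309 at Hist1h2bq, Hist1h2ao and Hist1h4m, 2649 against 2215 at Hist1h4n, Hist1h2ap and Hist1h2br, and 1911 against 1395 at Hist1h2bh and Hist1h3f. At Hist1h1d it was 1552.1 against 1035, and at Hist4h4 2324 against 1787. The smallest positive ratios were at Hist1h2ah and Hist1h2bk (1055 and 1040) and at Hist2h2ab, Hist2h2ac and Hist2h2be (2483 and 2442). Of the other 43 regions within 200 kb of the clusters, 31 had a higher DOP-treated sum (72.1%), with a median log2 ratio of 0.16.

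Ratios were higher in regions with low sums over the whole genome, so the histone regions were set beside regions of like size. Among sums of 0 to 500 the median log2 ratio was 0.57 over 4 histone regions and 0.27 over all. From 500 to 1000 it was 0.28 over 14 against 0.17, from 1000 to 2000 0.27 over 16 against 0.09, and above 2000 0.20 over 9 against 0.01. The covered length at histone regions was 1.10 times higher in the DOP-treated list, and 1.01 times over all regions. The mean score per peak was 477 against 442 at histone regions and 582 against 554 over all. In the 23 histone regions with the same number of peaks in both lists, all 23 had a higher DOP-treated sum, with a median log2 ratio of 0.26 against 0.14 over all such regions. Where repeated words made up at most 50% of the sequence, 20 of 21 histone regions were higher with DOP (median 0.29 against 0.12), and where they made up more, 22 of 22 were (0.26 against 0.13).

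**Figure D5:**
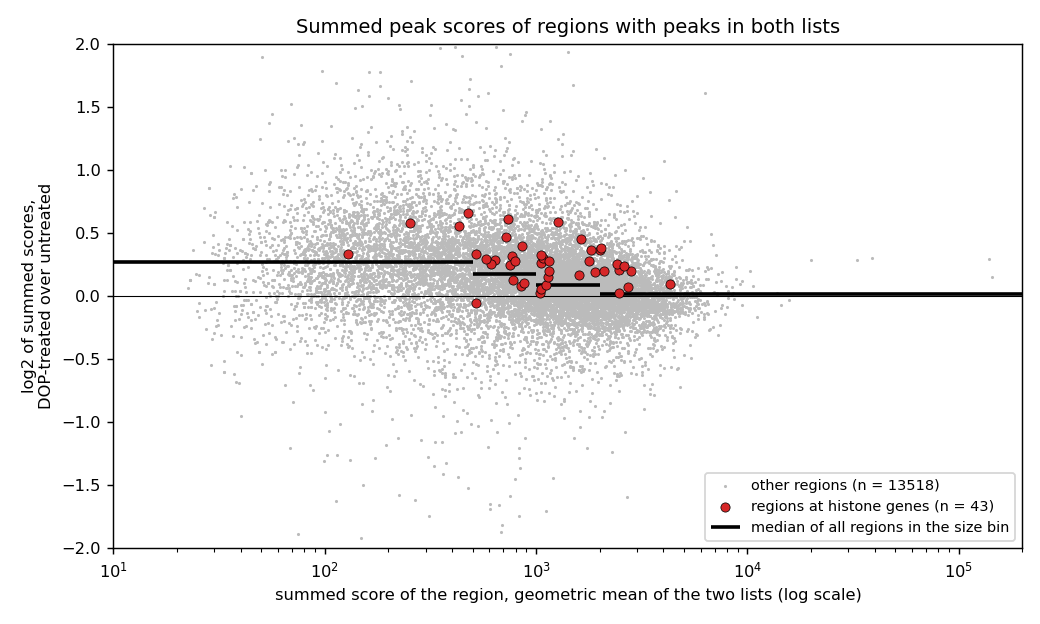
Log2 ratio of summed peak scores, DOP-treated over untreated, against the summed score of each region on a log axis (geometric mean of both lists). Red circles are the 43 histone regions and grey dots the other regions, with 11 outside the axis, black bars are the medians of all regions by size, and 42 of the 43 red circles lie above 0.

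Genes that serve the same supply of histones were compared from lists of names. Of 14 annotated genes of replication-independent histones, 10 had a peak within 1 kb in both lists, among them H2afz, H3f3a and H3f3b, and H1foo, H1fnt, Hils1 and H2afb1, known from germ cells, had none. The median log2 ratio of their 10 regions was 0.06, and 5 were higher with DOP. H2afx, whose gene also carries the stem-loop site, had 2960 against 2215 (0.42). H1fx, where no such site was found, had 2312 against 1838 (0.33), and H3f3b had 2366 against 2451 (−0.05). All 22 factors of histone gene transcription and histone mRNA processing had a peak within 1 kb in both lists. Of their 24 regions 14 were higher with DOP, with a median of 0.06. Npat, the coactivator of the histone locus body, had 2837 against 3187.9 (−0.17), and Slbp, the stem-loop binding protein, 2406 against 2085 (0.21). All 14 histone chaperones and import factors had peaks, and 7 of their 14 regions were higher, with a median of −0.01. Over all regions 69.4% were higher with DOP, with a median of 0.12, and most regions of these lists had sums above 1000. At sums of 1000 to 2000, 66.7% of all regions were higher (median 0.09), and above 2000, 53.4% (0.01). Of the 22 factors 6 had more DOP-treated peaks within 1 kb and 6 fewer, and of the 14 chaperones 7 had more and 3 fewer. Of all genes with a peak there, 27.9% had more and 26.4% fewer. The histone pseudogenes Hist2h3c2 and Hist1h2aj had 2 and 1 peaks over them in each list, and Hist3h2bb-ps had none.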

How the data were processed

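H3K9ac was measured by ChIP-seq in 2 DOP-treated and 2 untreated samples of STHdh Q111 cells. According to the paper's methods, the authors used Bowtie 2 to align single-end reads to mm9 and GPS to call the peaks, whereas the submitters' processing notes name BWA 0.7.10 and mm9. They deposited 1 list of peaks per condition with a score per peak. These lists hold 34286 DOP-treated and 33355 untreated peaks, more in each condition than the paper reports, so they may not be the same call. The score's definition, the threshold, how the samples of a condition and the IgG sample entered the call, and the depth are not given in the sources used here. The IgG sample was not analysed here.

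A percentile is the mid-rank of a score within its list. Starts, exons and coding ends came from GENCODE vM1, a peak was placed by its centre, and peaks were shared between lists when they overlapped by at least 1 bp. Motifs, GC content and repeated words of 32 bases were read from mm9, and a word and its reverse complement counted as 1. No test was made, since each condition has 1 list. The named genes were those with the highest score within 1 kb in each class and group, those with the largest difference in peak number within 1 kb, those without a peak there, and the members of pairs with an empty side. Genes outside this rule, and the printed pairs and H1 genes, were named after their values were seen. The genes and lists were chosen with earlier results of these data known, and the regions, the size bins and the count from the first coding base were added after seeing the data. Functions were tested on simulated data. Alternatives were other windows, rules of sharing, score limits, assignment of peaks to single genes, and scaling of the sums. The versions were Python 3.11.15, matplotlib 3.10.9, numba 0.67.0, numpy 2.4.6, pandas 2.3.3 and scipy 1.17.1.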

Additional observations from a re-analysis of the deposited data

How the results depend on the processing

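Of the values recomputed under other settings, 46 stayed within 1.5 times the reported count or within the interval of the reported value, and 18 moved. With the upper 50% of each list's scores, 70 DOP-treated and 57 untreated peaks lay within 10 kb, the peaks in 1 list alone numbered 1 and 0, and 3 genes had fewer DOP-treated peaks. The DOP-treated peaks in 1 list alone numbered 41 when a reciprocal overlap of 50% was asked for, 8 when centres within 1 kb counted as shared and 16 within 1 kb of a start. The untreated ones numbered 22, 1 and 4 in the same settings, and 7 when centres within 500 bp counted as shared. The highest peak of each chain had a median percentile of 60.44 in the DOP-treated and 58.99 in the untreated list. The genes with more DOP-treated peaks numbered 22 within 1 kb and 21 with each peak given to the nearest histone gene. Dividing the sums by the total of their list left 86.05% of histone regions higher with DOP, with a median log2 ratio of 0.183, against 56.6% and 0.04 of all regions. No replicate could be left out, since each condition has 1 list. No paired analysis was possible because each condition has 1 peak list and the samples have no columns of their own. The depth of the samples is unknown, so a gene without a peak had none called, which does not show that the mark was absent.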
